A study of Mus musculus with 8 samples.

Results

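The regions described here were accessible in satellite cells isolated after muscle injury (ASC), but held no peak in quiescent satellite cells (QSC) or in control cultures. They were selected on the deposited peak lists of 8 ATAC-seq libraries. Peaks on chromosomes 1 to 19 were merged wherever they overlapped, and a merged region counted as held by each library with a peak in it, down to 1 bp of overlap. A region was called transient when both ASC libraries held it and none of the 2 QSC and 2 LncMyod Control libraries did. That rule gave 1958 regions of 139157 merged regions, or 1.41% of them. The name describes the pattern across these lists, since no cell was followed over time.

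ATAC-seq uses the Tn5 transposase to cut and tag DNA that is not wrapped tightly in chromatin, so that peaks mark accessible promoters and enhancers. Satellite cells are the stem cells of skeletal muscle. They rest under the basal lamina marked by the transcription factor Pax7, enter the cell cycle after injury, and either differentiate through the transcription factor MyoD or return to rest. LncMyod is a long noncoding RNA transcribed near the gene for MyoD.

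All cells came from C57BL/6 mice, with 2 libraries in each of the 4 groups. QSC libraries came from freshly isolated cells, and ASC libraries from cells isolated 2.5 days after injury. Control libraries came from cultured cells given a control siRNA, and Knockdown libraries from cultured cells given an siRNA against LncMyod for 48 h. No time is recorded in the sources used here for the control siRNA. The Control and Knockdown groups share culture and siRNA, which neither isolated group had. Peak lists do not measure RNA, so the knockdown itself could not be checked. Whether the replicates are separate animals or cultures is not in the labels, so the spread between them may be technical.

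Lists held 58791 to 93986 peaks on chromosomes 1 to 19, and the longest was that of Knockdown replicate 1. They carry no read counts, so the depth of each library is unknown, and the absence of a peak does not show that a region was closed. The loci of Pax7, Myf5 and Myod1 carried peaks in all 8 libraries, from 8.47 to 13.0 kb of scaled covered length at Pax7, 2.63 to 5.02 kb at Myf5 and 2.03 to 3.73 kb at Myod1. The gene for the leukocyte marker Ptprc had no peak in either QSC library or either Knockdown library, Itgam had none in QSC, and Adgre1 had a peak in Knockdown replicate 2 alone. Leukocyte markers Cd68 and Csf1r carried peaks in all 8 libraries, with 3.78 to 4.55 kb and 0.572 to 2.78 kb of scaled covered length. Summed over 24 leukocyte genes, scaled covered length was 18.7 and 20.03 kb in QSC, 27.2 and 27.5 kb in ASC, 34.6 and 34.0 kb in Control, and 28.5 and 36.2 kb in Knockdown. Leukocyte loci therefore carried more covered length in ASC than in QSC, and their part in the results below was not tested. No transient region lay in the locus of any of those 24 genes, while 6.85% of all protein-coding loci held one. At that share a list of 24 genes can hold none, so the count says little about leukocytes.

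Sequences of transient regions can be shown where they reach into an annotated promoter. The stretches below lie in the 250 bases upstream of a protein-coding gene start and inside a peak of both ASC libraries. They are the 4 strongest such stretches held by both Knockdown libraries and the 4 strongest held by neither, among 25 stretches of at least 120 bases. Each reads 5′ to 3′ on the strand of its gene and ends at the base before the start. Sequences are from RefSeq, build GRCm38.p6, whose chromosomes have the coordinates of mm10. Capitals mark CpG dinucleotides, the main sites of DNA methylation in mammals, whose density in promoters differed between the classes of region.

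The first 4 were held by both Knockdown libraries. Gjd2 encodes a gap junction protein (chr2:114013620-114013869, minus strand), Noto a homeobox factor of the notochord (chr6:85423686-85423885, plus strand), Lrat an enzyme that esterifies retinol (chr3:82903975-82904224, minus strand) and Tmem239 a transmembrane protein (chr2:130406272-130406521, plus strand).
Gjd2 promoter: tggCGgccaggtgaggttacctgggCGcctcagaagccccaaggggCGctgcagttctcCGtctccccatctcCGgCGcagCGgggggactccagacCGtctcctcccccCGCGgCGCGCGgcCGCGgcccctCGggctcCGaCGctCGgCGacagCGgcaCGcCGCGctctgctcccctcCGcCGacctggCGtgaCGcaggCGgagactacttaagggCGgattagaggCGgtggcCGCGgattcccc
Noto promoter: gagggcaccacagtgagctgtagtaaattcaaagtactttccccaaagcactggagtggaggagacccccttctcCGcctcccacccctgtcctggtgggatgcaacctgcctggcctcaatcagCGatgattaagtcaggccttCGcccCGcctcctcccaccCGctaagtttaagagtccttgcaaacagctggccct
Lrat promoter: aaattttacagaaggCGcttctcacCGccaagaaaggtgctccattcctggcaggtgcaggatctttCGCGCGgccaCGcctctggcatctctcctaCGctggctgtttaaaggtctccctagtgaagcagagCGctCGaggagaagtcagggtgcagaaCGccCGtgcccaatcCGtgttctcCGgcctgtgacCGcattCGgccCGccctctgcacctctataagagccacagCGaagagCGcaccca
Tmem239 promoter: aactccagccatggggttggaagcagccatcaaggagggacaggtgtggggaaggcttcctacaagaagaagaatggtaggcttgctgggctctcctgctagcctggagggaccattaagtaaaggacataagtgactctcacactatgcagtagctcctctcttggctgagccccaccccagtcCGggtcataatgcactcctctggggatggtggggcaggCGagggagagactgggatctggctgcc

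The other 4 had no peak in either Knockdown library. Ankrd45 encodes an ankyrin repeat protein (chr1:161142580-161142711, plus strand), Zfp459 a zinc finger protein (chr13:67421419-67421606, minus strand), Ugt1a7c a glucuronosyltransferase (chr1:88094751-88095000, plus strand) and Slc38a11 an amino acid transporter (chr2:65364027-65364237, minus strand).
Ankrd45 promoter: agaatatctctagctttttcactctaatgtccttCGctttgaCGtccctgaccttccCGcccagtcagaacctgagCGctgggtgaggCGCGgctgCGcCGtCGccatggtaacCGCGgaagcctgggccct
Zfp459 promoter: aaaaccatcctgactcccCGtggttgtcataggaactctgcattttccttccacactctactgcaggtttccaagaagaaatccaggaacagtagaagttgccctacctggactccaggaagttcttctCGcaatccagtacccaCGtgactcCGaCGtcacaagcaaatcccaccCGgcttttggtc
Ugt1a7c promoter: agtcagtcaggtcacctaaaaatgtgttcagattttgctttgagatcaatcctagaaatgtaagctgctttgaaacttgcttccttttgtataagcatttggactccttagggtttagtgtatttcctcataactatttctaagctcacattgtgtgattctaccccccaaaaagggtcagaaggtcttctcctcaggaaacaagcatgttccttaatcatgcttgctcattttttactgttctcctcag
Slc38a11 promoter: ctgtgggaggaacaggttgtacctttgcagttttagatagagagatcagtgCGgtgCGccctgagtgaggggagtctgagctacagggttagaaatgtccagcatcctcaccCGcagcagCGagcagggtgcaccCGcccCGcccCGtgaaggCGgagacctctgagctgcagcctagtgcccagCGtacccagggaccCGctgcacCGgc

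The 8 stretches differed widely in CpG content. The Gjd2 stretch held 33 CpG dinucleotides at a GC content of 74.0%, and the Lrat stretch held 18 at 59.2%. At the other end, the Tmem239 stretch held 2 and the Ugt1a7c stretch, at a GC content of 38.8%, held 0. CpG-dense and CpG-poor promoters occurred on both sides of the Knockdown split.

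Transient regions were a minor part of the regions with a peak in both ASC lists and in no QSC list. Of 50634 regions held by both ASC libraries, 8364 were held by no QSC library. Control libraries held most of these: 5300 by both and 1106 by 1, which left 1958, or 23.4%, with no Control peak. A further 9020 regions had a peak in 1 ASC library alone (4613 in replicate 1 and 4407 in replicate 2) and none in QSC or Control, so peaks of this kind in a single library outnumbered shared ones. Without ASC replicate 1 or without replicate 2 the rule would give 6448 or 6613 regions. Transient regions had a median width of 511 bp (range 203 to 3023 bp), beside 553 bp for regions of both QSC libraries alone, 474 bp for regions of both Control libraries alone and 649 bp for all merged regions.

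**Figure D1:**
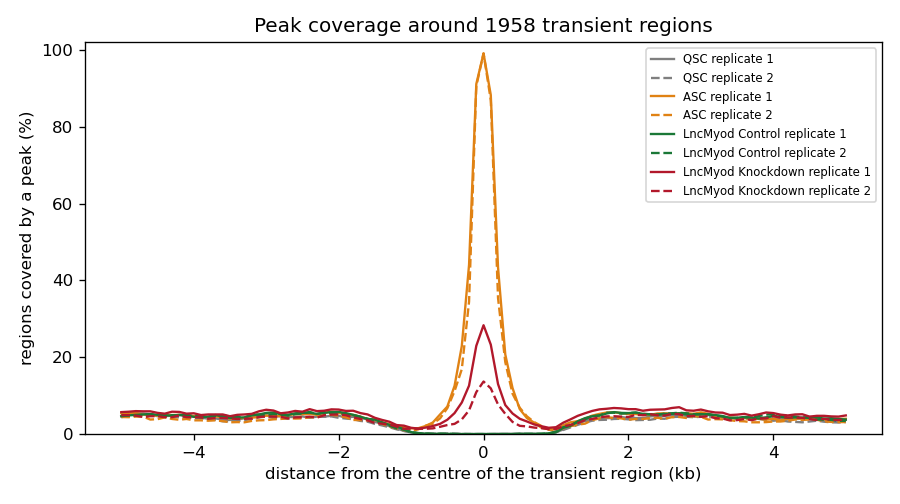
Share of the 1958 transient regions covered by a peak (y axis, percent) against distance from the region centre (x axis, kb), with 1 line per library and replicate 2 dashed. Both ASC libraries cover the centre in 99.1% of regions by the rule that chose them, the Knockdown libraries in 28.3 and 13.7%, and all 8 libraries lie between 3.12 and 5.72% at 5 kb on either side.

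By the authors' fold enrichment over local background, transient regions were weak. In bulk libraries, fewer cells with an open region and a less open region in each cell cannot be told apart. Their median fold was 3.18 in ASC replicate 1 (range 1.66 to 8.92) and 2.78 in replicate 2 (range 1.78 to 6.37). Ranked within each list, the median transient peak stood at percentiles 29.9 and 28.8. Regions held by both ASC and both Control libraries but no QSC stood at 48.8 and 41.7, quiescent-only regions, with peaks in both QSC libraries and in no ASC or Control library, at 35.1 and 32.6 in the QSC lists, and regions held by all 6 QSC, ASC and Control libraries at 69.8 and 65.3. Across the 1958 regions, fold in the ASC libraries was related, with Pearson's r = 0.733 and Spearman's rho = 0.675. The points share libraries, so this is a description over regions and not over animals.

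**Figure D2:**
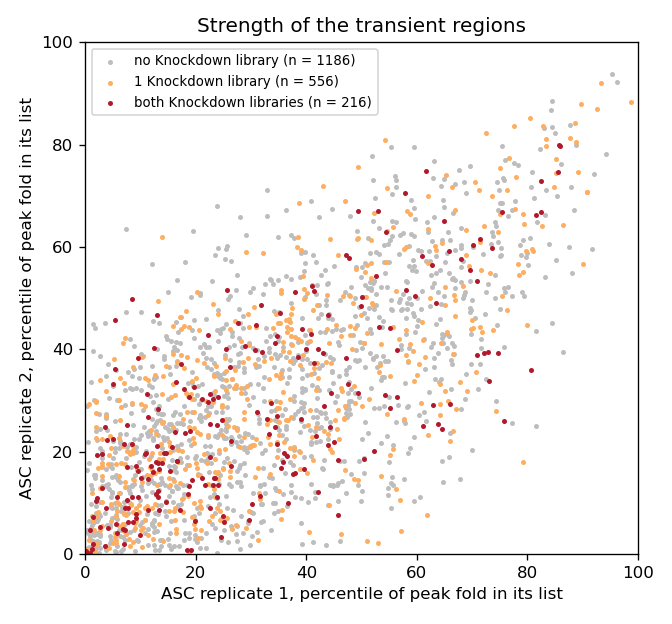
Each point is 1 of the 1958 transient regions, placed by the percentile of its peak fold in the list of ASC replicate 1 (x axis) and replicate 2 (y axis) and coloured by the number of Knockdown libraries with a peak. Most points lie toward the lower left, and the 216 regions held by both Knockdown libraries spread among the 1186 held by neither.

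Knockdown peaks took part in the merging but in no condition of the rule, so they give the independent comparison. Without Knockdown replicate 1 or replicate 2 in the merging the rule gave 1961 or 1956 regions. Knockdown replicate 1 held 638 of the 1958 transient regions (32.6%) and replicate 2 held 350 (17.9%), a mean of 25.2% ± 10.4 (SD, n = 2). Both held 216 regions (11.0%), 1 held 556 (28.4%) and neither held 1186 (60.6%). Over all merged regions the shares were 66.7% and 55.5%, so transient regions were held less often than regions at large, most of which have a peak in Control. Over the 29812 regions with no Control peak and a peak in at least 1 QSC or ASC library, the shares were 16.1% and 9.36%, so transient regions were held more often than these in each Knockdown library.

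A set chosen the same way in the resting cell served for comparison. Its 7955 quiescent-only regions had peaks in both QSC libraries and in no ASC or Control library. Knockdown replicate 1 held 7.97% of them and replicate 2 held 4.09%. Transient regions exceeded them by 24.6 and 13.8 percentage points, a mean of 19.2 ± 7.65 (SD, n = 2), which is 4.09 and 4.38 times the quiescent-only share. Both libraries showed the same direction. A sign-flip test over 2 libraries cannot give a two-sided p under 0.5, so none was run. The length of the lists moved the size: with all lists cut to the length of the shortest, the shares were 12.3% and 16.2% for transient regions and 2.71% and 3.53% for quiescent-only regions. The order of the Knockdown libraries was then the opposite, while transient regions stayed above quiescent-only regions in each. With a −log10 q of at least 3 in all libraries the mean difference was 11.4 points, and without ASC replicate 2 it was 11.1.

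Regions with peaks in both ASC libraries were held at similar shares with and without peaks in QSC. Of the 1292 regions held by both QSC and both ASC libraries but by no Control, Knockdown replicates 1 and 2 held 35.5% and 16.2%, beside 32.6% and 17.9% for transient regions. Regions with a peak in 1 ASC library alone stood at 19.6% and 14.2%, and those with a peak in 1 QSC library alone at 7.76% and 3.84%. Of regions with a peak in both Control libraries as well as both ASC libraries and none in QSC, 97.8% and 85.6% were held.

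**Figure D3:**
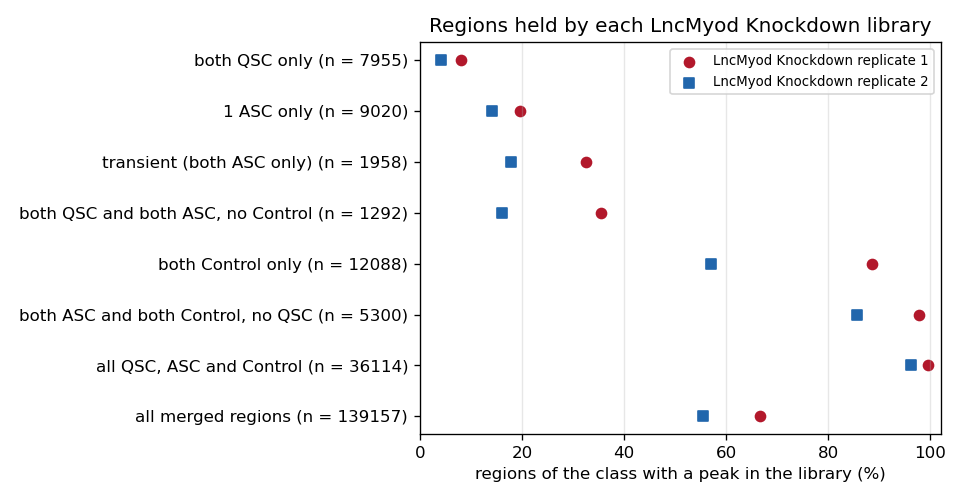
Share of each class of merged regions with a peak in Knockdown replicate 1 (circles) and replicate 2 (squares), on the x axis in percent, with the number of regions beside each class. Transient regions, at 32.6 and 17.9%, lie above regions of QSC alone and far below every class that Control libraries hold.

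Exchanging the roles of Knockdown and Control gave a count in the other direction. Both ASC and both Knockdown libraries, but no QSC or Control library, held 216 regions, against 88 held by both ASC and both Control libraries but no QSC or Knockdown library. That difference of 128 turned to -13 when every list was limited to a −log10 q of at least 3. It was -413 without Knockdown replicate 1 and 522 without Knockdown replicate 2, and 453, 222 and 199 without ASC replicate 1, ASC replicate 2 and Control replicate 2. Without a Knockdown or Control library the exchanged groups are of unequal size, so those values are no true mirror. Since the −log10 q limit, which keeps the groups equal in size, turned the sign, these lists do not fix the direction of the difference.

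Knockdown peaks inside transient regions were weak, with median folds of 2.55 and 2.54 at percentiles 19.5 and 18.9 of their lists. A −log10 q of at least 5 was reached by 7.21% and 0.571% of them, beside 58.9% and 50.3% of all peaks of those libraries. Knockdown peaks in quiescent-only regions were about as weak, with median folds of 2.54 and 2.55.

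Strength in ASC did not order the Knockdown share in 1 way. From the weakest to the strongest quartile of transient regions, the share held by Knockdown replicate 1 went from 30.0 through 32.9 and 33.3 to 34.1%. In replicate 2 it went from 22.0 through 20.4 and 15.7 to 13.3%, the opposite order. Every quartile lay above the same quartile of quiescent-only regions, which ranged from 6.89 to 8.60% and from 3.52 to 4.47%. Wider ASC peaks went with more Knockdown peaks in both libraries: from the narrowest to the widest quartile the shares rose from 25.5 to 40.5% and from 12.02 to 24.1%.

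**Figure D4:**
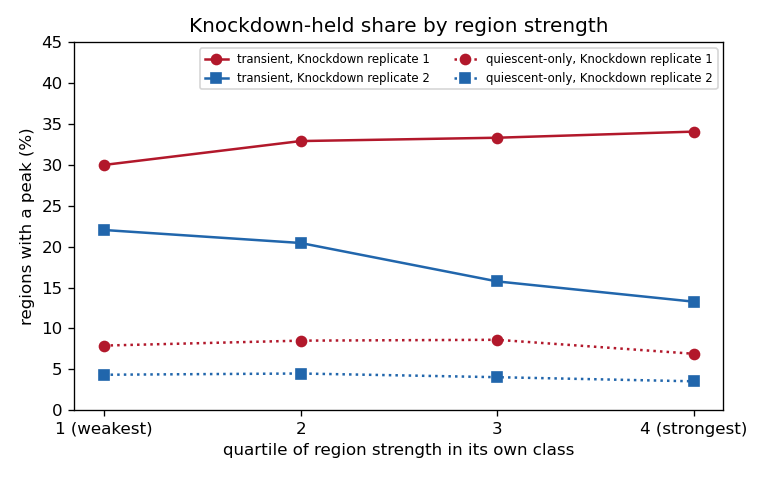
Share of regions with a Knockdown peak (y axis, percent) by quartile of region strength (x axis), solid for transient and dotted for quiescent-only regions, with circles for Knockdown replicate 1 and squares for replicate 2. Transient regions rise from 30.0 to 34.1% in replicate 1 and fall from 22.0 to 13.3% in replicate 2.

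The strongest transient regions held by both Knockdown libraries included regions inside genes of transcription, matrix and membrane proteins. A region of 677 bp inside Eya4 (chr10:23335798-23336474), a transcriptional cofactor of the Eyes absent family, had folds of 6.17 and 4.78 in ASC and 3.37 and 3.10 in Knockdown. One of 1129 bp inside Cilp (chr9:65272612-65273740), which encodes a matrix protein of cartilage, had folds of 6.12 and 4.44 in ASC and 2.72 and 3.00 in Knockdown. At Tspan18 (chr2:93214208-93214592), a tetraspanin gene, the folds were 5.21 and 3.98 in ASC and 3.25 and 2.22 in Knockdown. At all 3 the QSC and Control lists were empty, as the rule requires, and the Knockdown folds lay below the ASC folds, although folds of different lists share no common scale. The other 5 lay nearest to Gm46853, Ubl7, Gm36913, Gm40061 and Prss39, with ASC folds from 3.90 to 6.14 and Knockdown folds from 2.33 to 3.56.

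The strongest transient regions without a Knockdown peak were stronger still. They are the top 8 of 1186 regions, against the top 8 of 216 held by both Knockdown libraries, so the extremes come from sets of unlike size. The first lay inside Cubn (chr2:13480738-13481178), which encodes the endocytic receptor cubilin, with ASC folds of 7.65 and 6.37 at percentiles 95.3 and 93.9. Another, 4175 bp from Trdmt1 (chr2:13500239-13500704), the gene of a tRNA methyltransferase, lay next to it on the same chromosome, with folds of 6.00 and 5.61. A region inside Srgap2 (chr1:131506157-131506868), a regulator of Rac and of cell shape in the Slit and Robo pathway, had folds of 6.00 and 5.08. The remaining 5 were nearest to Cbln2, Gm41664, LOC115485926, Gm3331 and Gm2885, with folds from 4.98 to 7.87. Of these 8, Cbln2 was the farthest from its region, at 299346 bp.

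Most transient regions lay away from gene starts. Of 1902 on chromosomes with annotated starts, 109 lay within 1 kb of one, or 5.73% (Wilson 95% interval 4.77 to 6.87%, counting error over regions only). All merged regions stood at 11.4%, regions held by all 6 QSC, ASC and Control libraries at 31.7%, quiescent-only regions at 2.90% and regions held by both Control libraries alone at 2.88%. Other classes held by both ASC libraries lay on either side of the transient share. Regions also held by both Control libraries but no QSC stood at 5.09%. Those also held by both QSC libraries but no Control stood at 7.71%. The median distance to a start was 20.7 kb. Protein-coding genes contained 1042 of the 1958 (53.2%), long noncoding RNA genes another 217, 302 lay within 10 kb of either kind of gene, and 397 lay farther out. The start table covers 79.6% of protein-coding genes, so shares at starts are lower bounds.

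Transient regions with Knockdown peaks lay at gene starts more often. The share within 1 kb was 11.0% (23 of 210) for those held by both Knockdown libraries, 7.30% (39 of 534) for those held by 1 and 4.06% (47 of 1158) for those held by neither. A merged region takes in its Knockdown peaks, but measured from the ASC peaks alone these counts were 23, 38 and 47. Seen the other way, Knockdown replicate 1 held 50.5% of transient regions at starts and 31.2% of those farther away, and replicate 2 held 27.5% and 17.3%. Quiescent-only regions showed 12.2% against 7.86% and 5.88% against 3.95%. Transient regions at starts were also weaker and wider: the share at starts was 8.28% in the weakest quartile and 3.17% in the strongest, and 8.82% in the quartile with the widest ASC peaks against 3.73% in the narrowest. The part of strength and width in the difference between held and unheld regions was not tested.

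**Figure D5:**
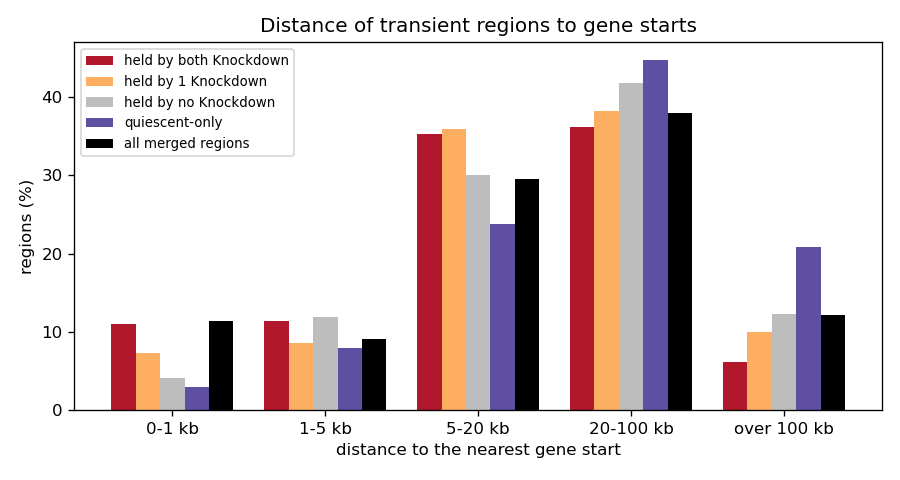
Share of regions (y axis, percent) by distance to the nearest annotated gene start (x axis), for transient regions held by both, 1 or no Knockdown library, for quiescent-only regions and for all merged regions. Within 1 kb the bars are 11.0, 7.30, 4.06, 2.90 and 11.4%.

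In all, 70 transient regions lay within 1 kb of the start of a protein-coding gene, and 58 covered the start itself. Both Knockdown libraries held 16 of the 70, 1 held 27 and neither held 27. The strongest was near the start of the predicted gene Gm31160 (ASC folds 4.76 and 3.61, Knockdown replicate 1 fold 2.19). At Itgbl1, which encodes an integrin beta-like protein, the ASC folds were 4.54 and 3.56, with no Knockdown peak. At Tlr9, the receptor for unmethylated CpG DNA, they were 3.91 and 3.55, with a Knockdown replicate 1 fold of 2.36. Tacr3, a neurokinin receptor gene, also had a peak in Knockdown replicate 1 alone (fold 2.81). The remaining 4 of the 8 strongest, Klk9, Ankrd45, Apol7a and Zfp459, had no Knockdown peak.

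Of the weaker starts, 4 are given as examples picked after their values were seen, and they stand for no group of genes. Lin28a, which encodes an RNA-binding protein of stem and embryonic cells, had ASC folds of 2.86 and 2.68 and Knockdown folds of 2.73 and 2.43. Ddx4, a germ cell helicase, had ASC folds of 2.60 and 3.31 and Knockdown folds of 2.34 and 2.60. Dkk1, a secreted Wnt antagonist, had ASC folds of 3.13 and 2.84 and a peak in Knockdown replicate 1 alone (fold 2.43). Nkx2-5, a cardiac transcription factor, had ASC folds of 2.41 and 2.25 and no Knockdown peak. All 4 stood in the lower 50 percentiles of both ASC lists.

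Promoters touched by transient regions were CpG-rich more often than those touched by quiescent-only or Control-only regions, as shares over windows with no test. A total of 93 RefSeq promoter windows of 300 bp, from 84 genes, overlapped a transient region, and 23.7% of them had a GC content of at least 50% with an observed to expected CpG ratio of at least 0.6. Quiescent-only regions reached 2.60% of 154 windows and regions of both Control libraries alone 0.952% of 210. Isolated-only regions, held by both QSC and both ASC libraries but no Control, reached 22.1%, and regions held by both ASC and both Control libraries but no QSC reached 21.5%. All windows stood at 34.1% and those of regions held by all 6 QSC, ASC and Control libraries at 70.9%. Median GC content was 56.3% for transient and 48.2% for quiescent-only windows. The share did not separate transient windows with a Knockdown peak (24.6%) from those without (22.2%). Their median observed to expected CpG ratios did differ, at 0.352 with a Knockdown peak and 0.527 without.

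A total of 14 motifs were searched on both strands of the same windows, and 4 are described here, none of which contains another. They do not stand for the rest, which differed in both directions. The IRF core TTCNNTTTC stood in 1.08% of transient windows (1 window) and 8.52% of all windows. The NF-kB motif GGGANTTCC stood in 5.38% of transient windows (5 windows) and 1.71% of all windows. The letters TGANTCA, bound by AP-1 factors, stood in 14.0% of transient windows and 7.84% of all 31396 windows. Quiescent-only windows (14.9%) and windows of regions held by both ASC and both Control libraries but no QSC (15.0%) had similar shares. The E-box CAGGTG, which Snail and ZEB factors bind, stood in 32.3% of transient windows, 28.1% of Control-only, 27.1% of ASC and Control, 26.5% of isolated-only, 11.0% of quiescent-only and 20.5% of all windows. GGGCGG, bound by SP and KLF factors, stood in 45.2% of transient, 41.2% of isolated-only, 14.3% of quiescent-only and 36.0% of all windows. Within transient windows it stood in 35.1% of 57 with a Knockdown peak and 61.1% of 36 without. The E-box CAGCTG, preferred by MyoD and myogenin, stood in 14.0% of transient windows, 16.3% of all windows and 37.1% of windows of regions held by both Control libraries alone. A match describes the letters and is not a bound site.

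At the level of genes, 1415 of 20665 protein-coding loci (6.85%), each the gene with 10 kb on both sides, held at least 1 transient region. Without ASC replicate 1 or replicate 2 the share would be 20.7 or 20.1%. Neighbouring transient regions were a median of 551 kb apart, and 45 gaps were under 10 kb. Atrnl1, Sox5 and Auts2 held 4 each, and all 3 are long genes with loci of 542, 974 and 1126 kb. The 4 regions in Sox5, a transcription factor of the SoxD group, had no peak in either Knockdown library. The strongest of them had folds of 5.29 and 3.95. In Auts2, a gene studied in neurodevelopment, 1 of 4 was held by both Knockdown libraries (folds 4.36 and 4.45 in ASC, 2.87 and 2.96 in Knockdown).

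Shorter genes with 3 transient regions each included Fam81a, Cd47, Gipc2, Arhgap22, Tcf7l2 and Sgip1. Fam81a had its 3 regions in a locus of 73.3 kb, where peaks covered 1.19 and 0.938 kb in QSC, 3.58 and 3.85 kb in ASC, 1.67 and 1.33 kb in Control, and 3.67 and 1.45 kb in Knockdown. These lengths take in the transient regions themselves. The rule requires ASC peaks there and allows no QSC or Control peak, so part of the ASC excess is built in. Cd47, whose product shields cells from phagocytosis, had 3 regions of which 1 was held by a Knockdown library. Only 1 of the 3 lay inside the gene, with ASC folds of 1.88 and 1.82 at percentiles 0.111 and 0.057. The others lay in the flank beyond its end. Tcf7l2, the transcription factor that acts with beta-catenin in Wnt signalling, differed in that each of its 3 regions was held by 1 Knockdown library, with ASC folds from 2.55 to 5.08.

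Among 18 gene lists of pathways and cell types, the share of genes with a transient region ran from 0 to 21.1%, beside 6.85% of all protein-coding genes. The lists hold 9 to 52 genes, and long loci have more room for a region, so the counts are descriptive. Contractile genes had 7 of 52 genes with 1 region each. Of these regions 5 had no Knockdown peak and 2 were held by 1 Knockdown library. Over all transient regions the shares were 60.6% and 28.4%, so this split is no result about contractile genes. The 5 without a Knockdown peak were at Actn2, which encodes a Z-disc actinin (ASC folds 3.27 and 3.94), Nebl, Tpm1, Mybpc1 and Jph2. The 2 with a peak were at Casq2, a calcium store protein (ASC folds 4.54 and 2.85), and at Myh3, the myosin heavy chain of embryonic and regenerating fibres (2.52 and 2.40).

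The Myh3 region also contains the hairpin of a miRNA gene, Mir6923, on the plus strand at chr11:67099804-67099875. Its mature RNA is shown because it is a miRNA lying inside a transient region, with the seed, bases 2 to 8, in capitals. ATAC-seq does not measure whether it is made.
mmu-miR-6923-5p: gUGAGGGCaggaggauuggggugu

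Myogenic program genes had a transient region at 3 of 31 loci. Eya4 is described above. Mbnl1, a splicing regulator of muscle, had 2, of which 1 was held by both Knockdown libraries (ASC folds 3.02 and 2.82) and 1 by neither (3.45 and 2.80). Rapsn, which anchors acetylcholine receptors at the synapse, had 1 with ASC folds of 4.10 and 4.38 and no Knockdown peak. Genes of quiescence had 1 of 29, at Tenm4, and growth signalling genes 3 of 31, at Pik3ca, Rptor and Hmga2.

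Notch genes had a region at 4 of 23 loci: Maml2, Adam10, Maml3 and Notch3. Maml2 and Maml3 encode coactivators of the pathway and Adam10 a protease that cleaves the receptors, and their regions had no Knockdown peak, with ASC folds from 2.95 to 4.37. The region 2913 bp from the receptor gene Notch3 was held by both Knockdown libraries (ASC folds 3.38 and 2.60). Notch3 also stands in the list of mural cell markers, where it was the only 1 of 14 genes with a region. Of Wnt, BMP and TGF-beta genes, 2 of 39 held regions, Tcf7l2 and Smad3, a TGF-beta signal transducer.

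Of the cytokine list, 4 of 38 genes held a region. Il33, an alarmin (ASC folds 5.43 and 4.51), Il10 (4.19 and 3.43), and the receptor genes Tnfrsf1b and Il4ra held 1 each, all without a Knockdown peak. Of the interferon list 3 of 36 genes held 4 regions: 2 at the receptor gene Ifnar2, 1 at Oas3 and 1 near Irf1. Those 4 also had no Knockdown peak, as did 60.6% of all transient regions, and with 18 lists of few regions each such a count is no result about a list. Of the immediate early, AP-1 and Runx list 3 of 31 genes held regions, at Runx2 (2), Runx1 and Fosl1, and 1 of the 4 regions, at Runx1, had a Knockdown peak.

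Endothelial markers had the highest share, 4 of 19 genes: Flt1 with 2 regions, and Pecam1, Tie1 and Flt4 with 1 each. The Pecam1 region had ASC folds of 4.26 and 3.33 and was held by both Knockdown libraries. Summed over the 19 genes, scaled covered length was 56.4 and 54.1 kb in QSC, 58.2 and 63.3 kb in ASC, 59.1 and 58.6 kb in Control, and 56.5 and 62.6 kb in Knockdown. Fibroadipogenic markers had 3 of 20, at Tcf21 (2 regions), Prrx1 and Osr1, with summed covered lengths of 67.1 and 62.0 kb in QSC, 64.1 and 53.4 kb in ASC, 49.97 and 47.2 kb in Control, and 47.9 and 43.9 kb in Knockdown. Whether other cells in the isolates add to these regions was not tested. Glial (0 of 9), hepatocyte (0 of 16) and leukocyte (0 of 24) markers held none.

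Of the other lists, cell cycle genes had 3 of 36 (E2f3, Mcm5 and Mcm7), guidance and migration genes 4 of 33 (Nrp2, Dock5, Sema4d and Arhgap31), and matrix and adhesion genes 3 of 41 (Nid1, Itgb3 and Col12a1). Nrp2, a receptor for semaphorins, had ASC folds of 3.92 and 4.64 with no Knockdown peak. The regions at Dock5, Sema4d and Arhgap31 were each held by 1 Knockdown library.

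To see whether loci of transient regions changed elsewhere, covered length outside the transient regions was compared between Knockdown and Control over 27183 loci. limma called 5 loci with more covered length in Knockdown at an adjusted p under 0.05 (0.0184% of loci) and 0 with less (0%). At an unadjusted p under 0.05, 1502 loci were higher and 1126 lower. Of 1937 loci that hold a transient region, 2 were called, Oas1f and Dnah8. The other 3, named after their values were seen, were Gm40972, Gm14344 and Gm14342. The locus of Gm14342 lies inside that of Gm14344, so these calls share peaks and are not separate. At all 3, as at Oas1f, peaks covered 0 bp in every QSC, ASC and Control library. That leaves no spread between replicates in those groups, although the fit draws on that spread.

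At Oas1f, a member of the oligoadenylate synthetase family, peaks outside the transient region covered 2297 and 1928 bp in Knockdown and 0 bp in the other 6 libraries (limma adjusted p = 0.0153). At Dnah8, an axonemal dynein gene, they covered 5322 and 4215 bp in Knockdown, 776 and 613 bp in Control, 574 and 661 bp in QSC, and 448 and 263 bp in ASC, a log2 difference of 2.03 ± 0.17 (SE) on the scale log2(scaled bp + 500) with a limma adjusted p of 0.0277. The transient regions in both loci had no Knockdown peak. Both calls were lost with the Knockdown and Control libraries fitted alone, with a limma adjusted p of 0.242 at each, and with the replicate block, with limma adjusted p-values of 0.092 and 0.124, while the log2 differences hardly moved (2.34 and 2.06 with those libraries alone, beside 2.26 and 2.03). A fit without 1 of these libraries leaves 1 library in a group, so only its log2 difference is given here. Leaving out either Knockdown library took Oas1f out of the fit, because the filter needs 2 libraries with 200 bp covered. At Dnah8 the log2 difference was then 2.02 in each fit. Without Control replicate 1 or 2 it was 2.12 or 1.93 at Dnah8, and 2.26 in each fit at Oas1f. Over the other alternatives that gave a value, limma adjusted p ran from 0.00904 to 0.242 at Oas1f and to 0.517 at Dnah8.

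Membership turned on small distances for a few regions. The closest QSC or Control peak lay a median of 3.79 kb from a transient region, and 188 (9.60%) had one within 1 kb. Those just inside the rule were at Ano6, 16 bp from a QSC peak, Acvrl1, 23 bp, Agbl4, 49 bp, Sh3bp5, 54 bp from a Control peak, and one nearest to Gm20139, 169 bp. Just outside stood 1524 regions held by both ASC libraries and by exactly 1 of the 4 QSC and Control libraries, among them 546 and 560 excluded by Control replicate 1 or 2 alone. In 4 of the 1524 the excluding peak overlapped no ASC peak and was joined to the region through other peaks. Among the rest the smallest overlaps with an ASC peak were 3 bp at Gm11728 and 19 bp at the region nearest to Gm40816. In 452 of the 1524, the excluding peak had a −log10 q under 2.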

How the data were processed

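The series comprises 8 ATAC-seq libraries, each with its own broad peak list. Per the submitters' processing notes the authors used MACS2 2.1.1 for peaks and bedtools 2.26.0 for intervals, after base calling by bcl2fastq 2.19, trimming by Trimmomatic 0.36, alignment to mm10 by Bowtie2 2.3.2, and SAMtools 1.3 and Picard 2.9.2. No settings, nor any shift of read ends for Tn5, were given in the sources used here. Peaks come with the authors' fold enrichment (a ratio to local background), the deposited values of −log10 p and of −log10 q, and a deposited display score, which was not used. These values described, ranked or filtered peaks within a list only. Lists carry no counts, so no depth or counting interval can be given, and longer lists hold more regions.

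Peaks were merged and compared with numpy 2.4.6, pandas 2.3.3 and scipy 1.17.1, and the interval code was tested on small made-up intervals. Gene positions and promoter windows came from RefSeq tables of GRCm38.p6. Starts came from the promoter table, since the gene table gives no strand. Of 527 list entries 522 matched a gene on chromosomes 1 to 19. Scaled covered length is the length under peaks divided by the total covered length of the library, times the mean total of all libraries. Covered length at loci was fitted with limma 3.58.1 in R 4.3.3 on log2(scaled bp + 500), with 4 group means over 8 libraries and a trended prior, for loci where 2 or more libraries covered 200 bp. P-values were adjusted over all loci by the Benjamini-Hochberg method at 0.05, and the fit was tested on simulated data.

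Named regions were the 8 strongest of each set, by the lower of their 2 ASC percentiles. Named genes were the 10 with the most transient regions, ties by density, up to 4 per list, and loci past the threshold; 1 gene that the rule names is not reported here. The regions, lists and tests were chosen with earlier results of these data known. Alternatives changed the overlap, merging, −log10 q, list length, chromosomes, windows, scaling, pseudocount, filter, replicate block and libraries.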

Additional observations from a re-analysis of the deposited data

Results flagged for a closer look

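Chromosomes X and Y stood outside the rule. The same pattern there, peaks in both ASC libraries and in no QSC or Control library, was met by 31 regions of 2153, all on chromosome X. Knockdown replicate 1 held 8 of them and replicate 2 held 0. No explanation was tested.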

How the results depend on the processing

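The higher Knockdown-held share of transient than of quiescent-only regions kept its direction in every alternative tried. Merging within 500 bp gave 1978 transient regions and adding chromosomes X and Y gave 1989, with small shifts in the other values. An overlap of at least 100 bp could not act, since a merged region contains its peaks whole. With a −log10 q of at least 3 in all libraries there were 1289 transient regions, held at a mean of 14.4%, 11.4 points above quiescent-only regions, with a mirror difference of -13, 6.93% at gene starts and 4.63% of protein-coding loci. With that limit in ASC only these were 743 regions, a mirror difference of 28, 3.35% at starts and 2.56% of loci. With equal list lengths there were 3338 regions, a held share of 14.2%, a difference of 11.1 points, a mirror difference of 68, 8.64% at starts and 11.5% of loci. Leaving out each library in turn gave 1956 to 6613 regions, the high counts without either ASC library. Held shares ran from 17.6 to 32.6%, and differences from 11.1 to 24.7 points. Mirror differences ran from -413 to 522, both extremes without a Knockdown library, where the exchanged groups are of unequal size. Shares at starts ran from 4.95 to 6.41%, and shares of loci from 6.84 to 20.7%. The share at starts was 16.7% within 5 kb, 3.68% for protein-coding genes alone and, an alternative chosen after seeing the data, 11.3% within 1 kb of either gene end of the full gene table. Loci with a transient region were 4.59% for the gene body alone and 15.1% when 50 kb was added at each end. Of the 24 named regions, 22 met the rule under each limit on −log10 q and 24 with equal list lengths; leaving out a QSC, ASC or Control library only relaxes the rule. One promoter window per gene, also chosen after seeing the data, gave a CpG-rich share of 23.8%.

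The 5 loci with more covered length became 29 without scaling, 8 with quantile normalization, 8 with a pseudocount of 2000 bp, 22 with equal list lengths and 36 for the gene body alone, where 8 loci had less. They became 0 with a −log10 q of at least 3, with only the Knockdown and Control libraries, and with the replicate block. Fits without 1 Knockdown or Control library left 1 library in a group, so no count is given for them. Without either Knockdown library, loci covered in Knockdown alone, such as Oas1f, dropped out of the fit. Between groups, deviations of libraries of the same number had correlations over loci from 0.0066 to 0.094, all small and positive. A shared batch need not change the length under called peaks, so these values cannot decide whether such libraries share more than a number. The causes were not tested. Depth is unknown, and lists of unequal length limit every held share.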
